A study of Mus musculus and Homo sapiens with 18 samples.

Results

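The matrix metalloproteinases (Mmp genes), the tissue inhibitors of metalloproteinases (Timp1 to Timp4) and the secreted Adamts proteases were followed through 3 deletions of the RNA-binding protein Quaking (Qk in mouse, QKI in human). Members were taken by symbol alone, as Mmp with a number and an optional letter, Timp1 to Timp4, and Adamts with a number, with antisense rows left out. This gave 46 of the 46882 genes counted in mouse lens, 46 of the 54838 counted in lens progenitor-like cells (NLPCs) and 47 of the 60880 counted in human HLE-B3 cells. RNA-seq was available from 18 libraries, with 3 in each group. The lens libraries came from mice aged P17-19, either Ctrl or Qk-iCKO (Nestin-CreERT2; QkL/L), and mice of both groups had received tamoxifen at P7 and P8. The study's methods give its control littermates as Nestin-CreERT2; Qk+/+, Nestin-CreERT2; QkL/+ or QkL/L. In the Qk-iCKO animals Cre follows the Nestin promoter, and the loxP sites flank exon 2 of Qk. The NLPCs were differentiated from neural stem cells of P1 brains of Nestin-CreERT2; QkL/L mice with Noggin and then bFGF, BMP4 and BMP7, and 4-hydroxytamoxifen, given to delete Qk, was the treatment behind the libraries labelled Qk-/- and not those labelled WT. HLE-B3 is an immortalised human lens epithelial line, compared as WT cells and as QKI KO cells made with lentiviral CRISPR-Cas9 and kept as a selected pool. The question was how the levels of these genes differed between deletion and control within each system.

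MMPs are zinc-dependent endopeptidases that cut collagens, basement membrane proteins and cell surface proteins, and most are made as inactive proenzymes. ADAMTS enzymes carry thrombospondin repeats that tether them to matrix, and their best known substrates are proteoglycans, procollagens, COMP, von Willebrand factor and fibrillin microfibrils. TIMPs block MMPs by binding their active site, and Timp3, which stays bound to the matrix, also blocks several ADAMTS enzymes. The lens is wrapped in a thick basement membrane, its capsule, and is joined to the ciliary body by fibrillin fibres.

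Lens libraries held 10319320 to 16425331 counts each, NLPC libraries 28154202 to 68243360, and HLE-B3 libraries 69190864 to 81384471. The TMM factor, which corrects for a few genes taking many reads, was 1.48 for Qk-iCKO library 1 and between 0.888 and 0.962 for the other 5 lens libraries. Qk itself was checked first. In HLE-B3 cells QKI was lower in KO cells (log2 fold change −1.34, adjusted p = 1.85e-11, edgeR), in the lens Qk had 1491 to 1636 normalized counts in Ctrl and 1118 to 1361 in Qk-iCKO libraries (−0.31, adjusted p = 0.2, edgeR), and in the NLPC libraries labelled Qk-/- the gene had more reads than in WT (0.41, adjusted p = 0.027, edgeR). Reads per gene do not show whether exon 2 was lost, so the NLPC groups are called here by their labels. Of the defining lens genes, Cryaa, Mip and Foxe3 were at or near 0 in the NLPCs, where Pax6, Prox1 and Cryab were counted, and CRYAA was at 0 in HLE-B3 cells. The 4 Y-linked genes counted had 0, 0 and 3 reads in the Ctrl lenses and 1, 1051 and 930 in the Qk-iCKO lenses, so the sexes of the lens libraries were not matched. The study's methods give 3 mice in each lens group and state in general terms that cell line work used independent biological replicates. The labels tie no single library to an animal or culture, so the p-values measure the spread between these libraries, which may in part be technical.

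In the lens, 18 of the 46 members had enough reads to be tested, 28 did not, and 6 of those (Mmp1a, Mmp1b, Mmp3, Mmp7, Mmp8 and Mmp20) had no read in any library. Deletion went with higher levels of Timp1, Adamts1, Adamts4, Adamts10, Mmp2 and Mmp19 and with a lower level of Adamts18. The 6 higher members compare with 8.38% of all genes tested that were higher, and the 1 lower member with 3.88% that were lower (adjusted p under 0.05, edgeR's quasi-likelihood test with Benjamini-Hochberg adjustment over all genes tested). At an unadjusted p under 0.05, 10 members were higher and 2 lower, where 28.7% of all genes tested passed that mark in either direction. The median log2 fold change was 0.85 over the 18 members and 0.0064 over all genes tested, and in 11 of the 18 no Ctrl library reached into the range of the Qk-iCKO libraries, where 35.3% of all genes tested did not overlap. Members that passed the filter only through their level in the Qk-iCKO lenses are among the 18, so this median describes the tested members and not the family. Together the members took 0.0362, 0.0363 and 0.0351% of the reads in the Ctrl lenses and 0.0903, 0.0400 and 0.0375% in the Qk-iCKO lenses, with Qk-iCKO library 1 the highest by far.

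Timp2 and Timp3 were among the 3 members with the highest levels in Ctrl lenses, with Adamts18 beside them. In CPM per kilobase of exon (CPM are reads as a share of the TMM-scaled library, in the usual per-1000000 unit), a scale on which genes of different length can be compared, Ctrl lenses held 15.9 ± 1.42 (SD, n = 3) of Timp2, 14.2 ± 1.28 of Timp3 and 13.7 ± 0.42 of Adamts18, while Adamts6 (2.97 ± 0.33) and Adamts4 (2.93 ± 0.31) came next. The spreads of Timp2 and Timp3 overlapped, those of Timp3 and Adamts18 overlapped, and Adamts6 and Adamts4 could not be ordered. In Qk-iCKO lenses the order changed in its lower places, with Timp1 at 10.7 ± 4.90, beside Adamts4 (8.21 ± 1.90) and Adamts18 (5.90 ± 0.88). The spreads of Timp1 and Adamts4 overlapped, and in Qk-iCKO 3 Timp1 (6.82) lay below Adamts4 (9.03) and Adamts18 (6.92), so these 3 could not be ordered. TIMP reads made up 42.8 to 47.7% of all member reads in Ctrl and 49.8 to 63.7% in Qk-iCKO lenses.

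Timp1, the inducible inhibitor, lies on chromosome X of GRCm38 from 20870166 to 20874735. Its normalized counts, that is, reads scaled to a common library size, were 28.8, 15.6 and 17.7 in the Ctrl lenses and 185.5, 104.6 and 77.9 in the Qk-iCKO lenses. All 3 Qk-iCKO libraries lay above all 3 Ctrl libraries, with a log2 fold change of 2.59 (SE 0.40, adjusted p = 0.00741, edgeR). The library highest for Timp1, Qk-iCKO 1, was the one Qk-iCKO library almost without Y-linked reads, and without it the log2 fold change was 2.15 (adjusted p = 0.0108, edgeR). Timp2, which takes part in the activation of pro-Mmp2 at the cell surface, had 868.9, 726.5 and 792.1 against 1891, 1093 and 1015 normalized counts. These groups did not overlap either, yet the difference missed the threshold (log2 fold change 0.75, SE 0.25, adjusted p = 0.102, edgeR). It passed when every gene with at least 1 count was kept (adjusted p = 0.0326, edgeR) and in DESeq2 (adjusted p = 0.0483), and without Qk-iCKO 1 its log2 fold change was 0.41 (adjusted p = 0.0808, edgeR). Timp3 had 1498, 1347 and 1613 against 2951, 1902 and 1404 normalized counts, so its groups overlapped (0.49, adjusted p = 0.274, edgeR), and Timp4 had at most 2 reads in any lens library.

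**Figure D1:**
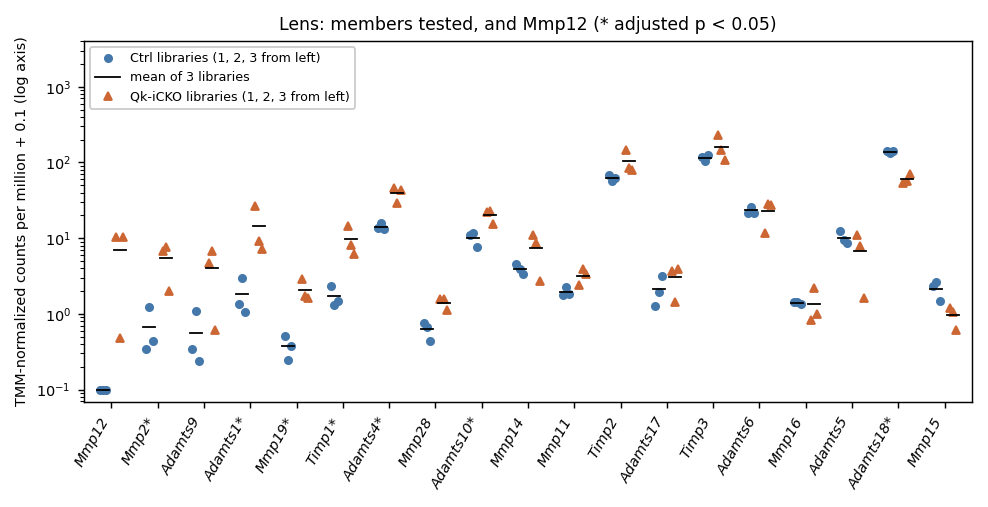
Lens libraries, TMM-normalized CPM plus 0.1 (log axis), for the 18 members tested and Mmp12, with Mmp12 first and the others in falling order of log2 fold change. Blue circles are the 3 Ctrl libraries, orange triangles the 3 Qk-iCKO libraries and bars the group means, an asterisk marks an adjusted p under 0.05. Mmp12 sits at 0 in every Ctrl library and reaches 10.2, 0.387 and 10.3 in the Qk-iCKO libraries, while Adamts18 falls from a mean of 139.0 to 60.1.

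Among the proteoglycan-cleaving ADAMTS genes, 4 of 7 were tested in the lens and 2 were higher. Adamts4, known as aggrecanase-1, had 172.7, 202.7 and 167.8 normalized counts in Ctrl and 592.1, 373.6 and 558.6 in Qk-iCKO lenses. The log2 fold change was 1.49 (SE 0.20, adjusted p = 0.00501, edgeR). Its groups did not overlap and it passed with any 1 lens library left out (adjusted p at most 0.0393, edgeR). Adamts1, which cuts versican and aggrecan, had 16.0, 37.6 and 12.4 against 340.3, 118.3 and 92.2 normalized counts. The log2 fold change was 3.07 (SE 0.62, adjusted p = 0.0196, edgeR). It missed the threshold without Ctrl 1 (2.88, adjusted p = 0.09, edgeR) or without Ctrl 3 (2.76, adjusted p = 0.0813, edgeR), and was 2.25 (adjusted p = 0.0251, edgeR) without Qk-iCKO 1. Adamts9, another versican-cleaving enzyme, had 3, 14 and 2 reads in Ctrl and 76, 69 and 5 in Qk-iCKO lenses, so 1 Qk-iCKO library lay within the Ctrl range. It missed the threshold (3.07, adjusted p = 0.0823, edgeR) and passed with the replicate number as a block (3.06, adjusted p = 0.00564, edgeR), with every gene of at least 1 count kept (adjusted p = 0.00131, edgeR), in DESeq2 (adjusted p = 0.00729) and without Qk-iCKO 3 (adjusted p = 0.0188, edgeR). Adamts5, or aggrecanase-2, had 157.8, 119.2 and 108.6 against 140.5, 99.6 and 19.5 normalized counts, which overlapped (−0.54, adjusted p = 0.563, edgeR).

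Adamts18 was the 1 member that fell in the lens. The gene, mutations of which cause inherited eye disorders in humans, lies on chromosome 8 of GRCm38 from 113697126 to 113848738. Its normalized counts were 1820 (library 1), 1725 and 1819 in Ctrl and 691.6, 722.3 and 905.4 in Qk-iCKO lenses. The groups stood well apart, and the log2 fold change was −1.21 (SE 0.16, adjusted p = 0.00379, edgeR), or −0.94 (adjusted p = 0.0249, edgeR) with scaling to total counts alone. It passed with each library left out in turn (adjusted p at most 0.0308, edgeR). The summed level of 10 lens fibre and epithelium genes was 201600 to 222000 CPM in Ctrl and 111800, 182100 and 176200 in the Qk-iCKO libraries, where 1 of the 9 tested, Mip, was lower (−1.69, adjusted p = 0.0259, edgeR), and its part in the Adamts18 difference was not tested. In bulk tissue, fewer cells of a type and less RNA per cell cannot be told apart. Adamts10, a gene of Weill-Marchesani syndrome in which lenses are dislocated, had 139.7, 149.5 and 98.0 against 283.4, 290.2 and 196.2 normalized counts (log2 fold change 0.99, SE 0.22, adjusted p = 0.0286, edgeR). This call was the least stable of the 7, since it was lost without any 1 of Ctrl 1, Ctrl 2, Ctrl 3, Qk-iCKO 1 or Qk-iCKO 2 (adjusted p = 0.0908, 0.0672, 0.0975, 0.059 and 0.0722 in that order, edgeR) and when only library totals set the scale (adjusted p = 0.0608, edgeR).

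Of the gelatinases, Mmp2 was tested and Mmp9 was not. Mmp2, which cuts denatured and basement membrane collagen, had 3, 16 and 5 reads in Ctrl and 109, 79 and 19 in Qk-iCKO lenses, or 3.20, 14.7 and 4.42 against 86.1, 98.4 and 24.7 normalized counts. Its log2 fold change was 3.20 (SE 0.69, adjusted p = 0.0244, edgeR). The call was lost without Ctrl 1, Ctrl 3, Qk-iCKO 1 or Qk-iCKO 2 (adjusted p = 0.0966, 0.0981, 0.0542 and 0.062, edgeR), with log2 fold changes of at least 2.85. Mmp9 had 0, 2 and 2 against 5, 8 and 3 reads, too few to test. Mmp14, the membrane-type enzyme that activates pro-Mmp2, had 56.5, 49.5 and 41.5 against 139.0, 110.8 and 33.8 normalized counts, and since Qk-iCKO 3 lay below every Ctrl library it did not pass (0.96, adjusted p = 0.216, edgeR) unless that library was left out (1.35, adjusted p = 0.0148, edgeR). None of the 3 membrane-type MMPs tested in the lens passed the threshold in edgeR or in DESeq2, and 1 of them, Mmp15, had an unadjusted p under 0.05 (edgeR), and in the blocked fit it passed (−1.25, adjusted p = 0.0488, edgeR). Mmp19 had 5, 2 and 4 reads in Ctrl and 46, 17 and 15 in Qk-iCKO lenses. The log2 fold change was 2.85 (SE 0.48, adjusted p = 0.00983, edgeR) and became 2.84 (adjusted p = 0.0528, edgeR) without Ctrl 3. The gene on its opposite strand, Tmem198b, gave 0.17 (adjusted p = 0.661, edgeR).

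The widest gap in the lens lay outside the tested set. Mmp12, the macrophage metalloelastase, had 0 reads in all 3 Ctrl lenses and 166, 4 and 102 in the Qk-iCKO lenses, so Qk-iCKO libraries 1 and 3 were high and library 2 was close to Ctrl. Against a floor of 3 reads over the Ctrl group it was at least 101-fold higher, and at least 70.9-fold higher without Qk-iCKO 1. The low count in library 2 kept Mmp12 below the filter. It passed when every gene with at least 1 count was kept (adjusted p = 1.06e-06, edgeR), in DESeq2 (adjusted p = 0.000774) and without Qk-iCKO 2 (adjusted p = 0.00283, edgeR), and did not pass without Ctrl 1, Ctrl 2 or Ctrl 3 (adjusted p = 0.104, 0.0989 and 0.104, edgeR). The collagenases were all but silent, with at most 5 reads for Mmp13 and none for Mmp1a, Mmp1b and Mmp8. Adamts2, a procollagen N-propeptidase, had 7, 5 and 3 reads against 73, 36 and 1, and was also too low in 1 library to be tested. It passed without that library, Qk-iCKO 3 (3.39, adjusted p = 0.00738, edgeR), with every gene of at least 1 count kept (2.83, adjusted p = 0.00527, edgeR) and in DESeq2 (adjusted p = 0.031).

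Mmp12 and Mmp13 are neighbours in the MMP cluster on mouse chromosome 9, and their promoters are shown because Mmp12 had the widest gap in the lens and the human counterpart of Mmp13 rose in HLE-B3 cells. Each sequence is the stretch of 100 bases before an annotated start, 5′ to 3′ on the gene's own strand, with the AP-1 motif TGAGTCA or TGACTCA (1 motif read on its 2 strands) in capitals. The mouse sequences are from RefSeq (GRCm38.p6), at chr9:7347274-7347373 for Mmp12 and chr9:7272414-7272513 for Mmp13, both on the plus strand.
Mmp12: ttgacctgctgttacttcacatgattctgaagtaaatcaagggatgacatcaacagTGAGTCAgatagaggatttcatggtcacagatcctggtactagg
Mmp13: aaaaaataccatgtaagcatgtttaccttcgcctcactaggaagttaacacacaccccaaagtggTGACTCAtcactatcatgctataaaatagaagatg
The motif starts at −44 in Mmp12 and −35 in Mmp13, counted from the start. The table holds a second start for Mmp12, upstream of this one, and its window at chr9:7344147-7344446 held no motif. Of 32 mouse members with a promoter in the RefSeq table, 7 held the motif between 250 bases before and 50 bases after a start (Mmp1a, Mmp1b, Mmp3, Mmp7, Mmp10, Mmp12 and Mmp13), which is 20% of their 35 promoter windows, against 5.20% of all 32851 mouse promoters. Of 46 human members, 7 held it (MMP1, MMP3, MMP7, MMP9, MMP12, MMP13 and MMP19), against 3.56% of 19894 human promoters. All 7 mouse genes lie in the cluster on chromosome 9. In the lens, 4 of these 7 had no read at all and Mmp12 was the 1 with more than 5 reads in a library. Of the 7 human genes, MMP13 was higher in QKI KO cells (2.37, adjusted p = 2.17e-05, edgeR) and MMP19 lower (−0.56, adjusted p = 0.00134, edgeR). MMP1, MMP3 and MMP7 did not pass, and MMP9 and MMP12 were not tested. Any part of the motif in these levels was not tested.

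Markers of other cell types were read in the same libraries. Of the 10 macrophage and leukocyte markers, all 9 that were tested were higher (edgeR). Some of these, such as Ptprc, passed the filter only through their level in the Qk-iCKO lenses. The 10 summed to 2.155, 2.21 and 4.26 CPM in the Ctrl lenses and to 112.2, 135.8 and 152.4 in the Qk-iCKO lenses. Mmp12 did not follow this sum, since Qk-iCKO 2 had 135.8 of the marker sum and 0.387 CPM of Mmp12, against 10.2 and 10.3 in the other 2 Qk-iCKO libraries. The single markers differed in this respect. Normalized counts in Qk-iCKO libraries 1 to 3 were 195.8, 67.2 and 201.4 for Cd68 and 104.2, 44.8 and 84.4 for Itgam. For C1qa they were 300.8, 531.8 and 559.9, and for Csf1r 319.7, 475.7 and 453.4. Of the 8 neutrophil markers, 7 were at 0 in every lens library. The fibroblast and stroma sum was 63.8 to 79.2 in Ctrl and 173.3, 146.3 and 103.7 in Qk-iCKO libraries 1 to 3, with 1 of 4 tested higher (Col3a1). By mean normalized counts its largest part was Pdgfra, at 743.4 and 980.1 (0.40, adjusted p = 0.192, edgeR). Col1a2 came next, at 126.9 and 774.5 (2.62, adjusted p = 0.102, edgeR), and Lum and Kera were at 0 in every Qk-iCKO library. The endothelium sum was 10.2 to 13.9 against 16.4 to 27.7, with 2 of 5 higher. Over all genes tested in the lens, 8.38% were higher. The sum for pigmented iris, ciliary or retinal epithelium was 138.9 in Qk-iCKO 1 and 24.0 and 8.68 in the other Qk-iCKO libraries, against 4.26 to 9.28 in Ctrl, and the photoreceptor sum was 525.8 in Ctrl 2 against 1.99 to 80.0 elsewhere. What these cells contributed to the levels of Timp1, Mmp2, Mmp12, Mmp19 or Adamts1 was not tested.

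**Figure D2:**
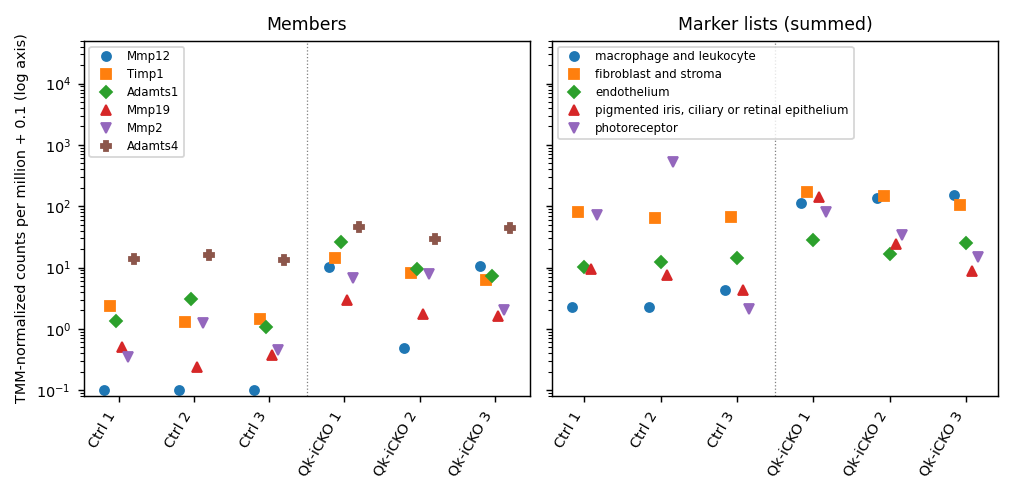
The 6 lens libraries along the horizontal axis, with TMM-normalized CPM plus 0.1 (log axis) of 6 members on the left and the summed level of 5 marker lists on the right. The macrophage and leukocyte sum lies between 112.2 and 152.4 in all Qk-iCKO libraries, whereas Mmp12 drops to 0.387 in Qk-iCKO 2. Of the genes in that sum, Cd68 and Itgam were also lowest in Qk-iCKO 2 among these libraries, and C1qa and Csf1r in Qk-iCKO 1. Adamts1 and Timp1 are highest in Qk-iCKO 1, which also has the highest sum of pigmented epithelium markers (138.9).

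The genes that activate or restrain these proteases were read from a list of 22. In the lens 16 were tested, 6 were higher and 1 lower. Plau and Serpine2 passed the filter only through their level in the Qk-iCKO lenses, so these counts describe the tested genes alone. Over all genes tested in the lens, 8.38% were higher and 3.88% lower (adjusted p under 0.05, edgeR). Plau, the urokinase that makes plasmin and so starts several MMP proenzymes, had 1.07, 0 and 0 normalized counts in Ctrl and 13.4, 18.7 and 24.7 in Qk-iCKO lenses (log2 fold change 5.40, adjusted p = 0.00551, edgeR). Inhibitors rose as well, since the broad protease trap A2m gave 3.12 (adjusted p = 0.0215, edgeR), the plasminogen activator inhibitor Serpine2 2.66 (adjusted p = 0.0461, edgeR) and Reck, a membrane-anchored MMP inhibitor, 1.33 (adjusted p = 0.0232, edgeR). The testican Spock1 was higher at 1.12 (adjusted p = 0.0438, edgeR), and its relative Spock3 was lower at −1.49 (adjusted p = 0.0202, edgeR). The count of higher genes fell to 3 with scaling to total counts alone, and ran from 1 (without Ctrl 1 or Ctrl 2) and 2 (without Ctrl 3) to 7 (without Qk-iCKO 3) with 1 library left out. Of 12 matrix substrates, 8 were tested and 2 were higher, namely Fn1 (fibronectin, 6.11, adjusted p = 0.000612, edgeR) and Vwf (2.36, adjusted p = 0.00249, edgeR).

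In the NLPCs, 32 of the 46 members were tested, 14 were not, and Mmp1b alone had no read in any library. The libraries labelled Qk-/- had higher levels of Mmp24, Adamts2, Adamts14 and Adamts15 and lower levels of Adamts7 and Mmp16. The 4 higher members compare with 4.74% of all genes tested, and the 2 lower with 5.96% (adjusted p under 0.05, edgeR). At an unadjusted p under 0.05 there were 7 higher and 4 lower, against 26.4% of all genes tested in either direction. The median log2 fold change was 0.14 over the 32 members and 0.040 over all genes tested, and 15 of the 32 did not overlap between the groups, against 35.2% of all genes tested. Members took 0.120 to 0.140% of the reads in WT and 0.138 to 0.155% in the libraries labelled Qk-/-.

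Mmp24, a membrane-type MMP of neural tissue that cuts N-cadherin, had the smallest adjusted p among the members. It lies on chromosome 2 of GRCm38 from 155775342 to 155818366. Its normalized counts were 268.2, 311.1 and 268.5 in WT and 1487, 1080.1 and 1532 in the libraries labelled Qk-/-. The groups were far apart, with a log2 fold change of 2.28 (SE 0.17, adjusted p = 0.000331, edgeR), and it passed under every alternative run for the NLPCs (log2 fold change 2.17 to 2.43). BC029722, which overlaps it on the opposite strand, gave 0.12 (adjusted p = 0.748, edgeR). In the lens Mmp24 had at most 3 reads in a library. Mmp16, a related membrane-type enzyme, went the other way, from 6662, 7035 and 6156 to 4414, 4829 and 4411 normalized counts (−0.54, SE 0.09, adjusted p = 0.00841, edgeR). That call was lost by a small margin without WT 1 (adjusted p = 0.0508, edgeR) or without the library labelled Qk-/- 1 (adjusted p = 0.054, edgeR). Mmp14, which cuts many of the same proteins, had at most 22 reads in any NLPC library and was not tested. Neither gelatinase passed in the NLPCs, with Mmp2 at 11, 3 and 14 against 23, 24 and 19 reads (1.79, adjusted p = 0.23, edgeR) and Mmp9 at 2, 3 and 20 against 17, 12 and 3 reads (0.92, adjusted p = 0.669, edgeR).

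Of the 3 procollagen N-propeptidases, which trim the amino end of fibrillar procollagens, 2 were higher. Adamts2 had 104.1, 123.7 and 135.8 normalized counts in WT and 303.0, 420.3 and 247.5 in the libraries labelled Qk-/- (1.41, SE 0.27, adjusted p = 0.0147, edgeR). Adamts14 had 355.8, 169.6 and 347.0 against 730.8, 490.3 and 771.7 (1.19, SE 0.30, adjusted p = 0.0444, edgeR). The groups were separate in both genes. The third, Adamts3, was lower without passing, at 127.0, 139.0 and 125.6 against 55.2, 36.9 and 81.9 (−1.16, adjusted p = 0.11, edgeR). The Adamts14 call was lost without any 1 of WT 1, WT 2, WT 3 or the libraries labelled Qk-/- 1 and 3 (adjusted p = 0.115, 0.103, 0.142, 0.147 and 0.122, edgeR). That of Adamts2 was lost without WT 1, WT 2, WT 3 or the library labelled Qk-/- 1 (adjusted p = 0.0849, 0.0673, 0.0713 and 0.0618, edgeR). Adamts15, a versican-cleaving enzyme, went from 231.2, 292.0 and 397.3 to 537.2, 722.6 and 546.9 normalized counts (0.97, SE 0.23, adjusted p = 0.0356, edgeR) and lost its call without WT 1, WT 2 or the libraries labelled Qk-/- 1 and 3 (adjusted p = 0.138, 0.137, 0.0899 and 0.0706, edgeR). Adamts7, which cuts COMP, fell from 1026, 1044 and 1267 to 513.0, 411.1 and 547.8 (−1.18, SE 0.16, adjusted p = 0.00317, edgeR) and passed with each library left out in turn (adjusted p at most 0.0323, edgeR). Adamts16 had 11, 2 and 4 against 27, 75 and 26 reads. It missed the threshold (3.64, adjusted p = 0.0605, edgeR) and passed with every gene of at least 1 count kept (adjusted p = 0.044, edgeR) and in DESeq2 (adjusted p = 0.00419).

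The best known aggrecanases did not pass in the NLPCs. Adamts4 had 1862, 1674 and 1809.8 normalized counts in WT and 1526, 1287 and 1363 in the libraries labelled Qk-/-, which did not overlap (−0.36, adjusted p = 0.0904, edgeR). Adamts1 was close to level (0.19, adjusted p = 0.368, edgeR), and Adamts5 had 104.9, 93.1 and 86.4 against 141.3, 206.4 and 87.4, which overlapped (0.61, adjusted p = 0.344, edgeR). In CPM per kilobase of exon, WT NLPCs held 51.7 ± 3.04 (SD, n = 3) of Timp2, 50.0 ± 0.89 of Timp3, 24.0 ± 2.03 of Timp4, 16.4 ± 1.34 of Mmp15 and 14.2 ± 0.94 of Mmp16. Timp2 and Timp3 could not be ordered, and Timp4 lay clearly below both. Timp2 was 11387, 10159 and 11082 against 16097, 12503 and 14139 normalized counts, with no overlap. It missed the threshold (0.39, adjusted p = 0.0598, edgeR) and passed with the replicate number as a block (0.38, adjusted p = 0.038, edgeR), with RLE size factors (adjusted p = 0.0434, edgeR), with at least 10 counts required in every library (adjusted p = 0.0204, edgeR), in DESeq2 (adjusted p = 0.00849) and without the library labelled Qk-/- 2 (0.48, adjusted p = 0.00306, edgeR). Timp1 had 397.6, 460.3 and 501.7 against 329.1, 307.8 and 401.3 normalized counts, where 1 library of each group overlapped (−0.39, adjusted p = 0.207, edgeR). Timp3 (0.17, adjusted p = 0.37, edgeR) passed only without the library labelled Qk-/- 2 (0.29, adjusted p = 0.0162, edgeR), and Timp4 (0.0066, adjusted p = 0.978, edgeR) did not pass.

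**Figure D3:**
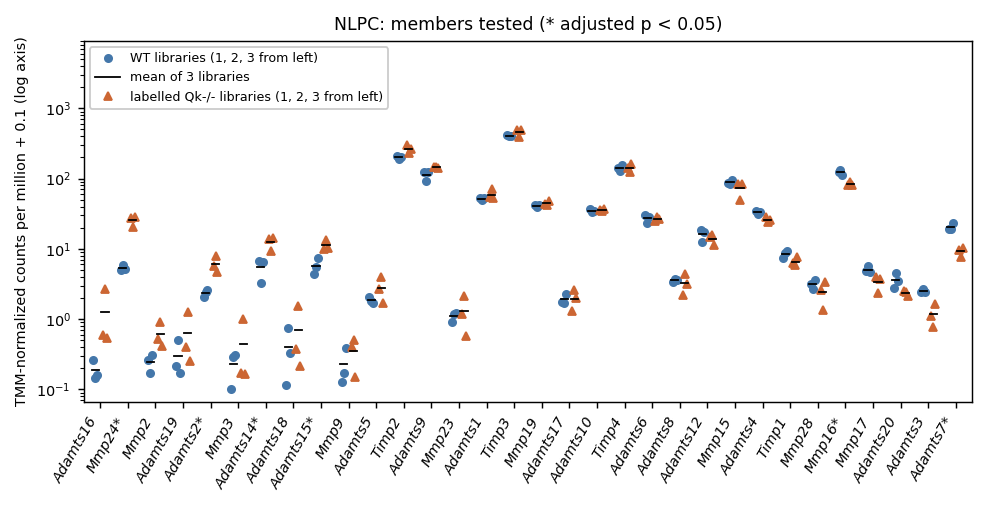
NLPC libraries, TMM-normalized CPM plus 0.1 (log axis), for the 32 members tested, ordered by log2 fold change from left to right. Blue circles are the 3 WT libraries, orange triangles the 3 libraries labelled Qk-/- and bars the group means, with an asterisk for an adjusted p under 0.05. Mmp24 rises from a mean of 5.24 to 25.3 and Adamts7 falls from 20.6 to 9.09.

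None of the 22 activation and inhibition genes was higher in the libraries labelled Qk-/- (17 tested by edgeR, 1 higher in DESeq2 and 1 in the fit blocked on replicate number, and 3 higher at an unadjusted p under 0.05), and 3 were lower. Over all genes tested in the NLPCs, 4.74% were higher and 5.96% lower (adjusted p under 0.05, edgeR). A2m fell by 1.25 on the log2 scale (adjusted p = 0.000331, edgeR), the sheddase Adam17 by 0.69 (adjusted p = 0.00521, edgeR) and the plasminogen activator Plat by 0.64 (adjusted p = 0.00347, edgeR). A2m thus was higher after deletion in the lens and lower here. Of 11 substrates tested, the proteoglycan Vcan was higher (0.59, adjusted p = 0.0163, edgeR), and Nid2 (−1.36, adjusted p = 0.00286, edgeR) and Reln (−1.23, adjusted p = 0.000507, edgeR) were lower. The sum of neural stem cell and astrocyte markers was 4907 to 5415 CPM in WT and 3192 to 3656 in the libraries labelled Qk-/-. Of the 6 genes in that list, Slc1a3 (−1.66), Gfap (−1.38) and 1 other were lower and Aqp4 was higher (0.74, adjusted p = 0.0012, edgeR). The sum of neuron markers was 42.2 to 64.1 against 65.7 to 70.8 CPM, and 2 of its 6 genes were higher, Snap25 (5.87, adjusted p = 0.000331, edgeR) and Dcx (1.02, adjusted p = 0.012, edgeR). The sum of fibroblast and stroma markers was 68.8 to 79.3 against 33.3 to 35.3 CPM. Most of it was Pdgfra, a gene also made by glial progenitors (−1.26, adjusted p = 0.0011, edgeR), while Col1a1 (1.38), Dcn (2.97), Col3a1 (1.41) and Col1a2 (3.60) had log2 fold changes above 0 without passing. The part of these markers in the member differences was not tested.

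In HLE-B3 cells, 34 of the 47 members were tested, 13 were not, and 3 of those (MMP20, MMP26 and MMP27) had no read in any library. MMP2, TIMP3, ADAMTS14 and ADAMTS4 were among 13 members that were lower in QKI KO cells, and MMP13, TIMP4 and ADAMTS1 were among 5 that were higher. The comparison is with 16.3% of all genes tested that were lower and 17.0% that were higher (adjusted p under 0.05, edgeR). The same 5 and 13 members had an unadjusted p under 0.05, against 41.3% of all genes tested in either direction. The median log2 fold change was −0.32 over the 34 members and −0.020 over all genes tested, and 23 of the 34 did not overlap between the groups, against 44.6% of all genes tested. Members took 0.197 to 0.201% of the reads in WT and 0.140 to 0.146% in KO cells, and the TIMP share of these reads was 47.4 to 49.4% and 39.6 to 40.2%.

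TIMP3 was the most abundant member of WT HLE-B3 cells in CPM per kilobase of exon, at 148.5 ± 2.38 (SD, n = 3), followed by TIMP1 at 96.2 ± 9.23, MMP14 at 38.8 ± 2.70, ADAMTS1 at 29.3 ± 2.71 and TIMP2 at 19.9 ± 0.84. The spreads of neighbours in this order did not overlap. In KO cells TIMP1 (88.5 ± 6.60) stood above TIMP3 (72.8 ± 1.96), and ADAMTS1 (40.8 ± 0.36) above MMP14 (30.5 ± 0.96). TIMP3 lies on chromosome 22 of GRCh37 from 33197691 to 33259028, and it went from 50722, 50795 and 49362 to 24713, 25276 and 23952 normalized counts. With replicates this close, the log2 fold change of −1.03 had an SE of 0.05 (adjusted p = 1.32e-10, edgeR). TIMP4, the inhibitor with the fewest reads, rose from 46.0, 103.0 and 65.7 to 194.0, 158.9 and 184.0 normalized counts (1.32, SE 0.31, adjusted p = 0.00304, edgeR). It lies inside SYN2 on the opposite strand, which gave 1.33 (adjusted p = 0.217, edgeR) from few reads, so the source of these reads is uncertain. TIMP1 (−0.12, adjusted p = 0.251, edgeR) did not pass. TIMP2 (−0.12, adjusted p = 0.129, edgeR) passed only with scaling to total counts alone (−0.18, adjusted p = 0.0322, edgeR).

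MMP2, on chromosome 16 of GRCh37 from 55423612 to 55540603, had 4499, 4511 and 3909 normalized counts in WT and 614.1, 583.4 and 507.9 in KO cells. The log2 fold change was −2.92 (SE 0.09, adjusted p = 1.3e-12, edgeR), and every KO library lay far below every WT library. MMP14, which activates it, fell by 0.35 (adjusted p = 0.00031, edgeR), from 13483, 13979 and 12199 to 10766, 10274 and 10148 normalized counts. MMP9 had 15, 10 and 0 against 2, 0 and 0 reads and was not tested. Collagenase 3, MMP13, went the other way. It lies on chromosome 11 of GRCh37 from 102813724 to 102826461 and had 48.7, 23.2 and 36.95 normalized counts in WT and 195.0, 192.0 and 178.0 in KO cells (2.37, SE 0.32, adjusted p = 2.17e-05, edgeR). MMP10, a stromelysin of the same cluster, fell from 758.5, 601.9 and 849.9 to 343.8, 396.8 and 453.6 (−0.89, adjusted p = 0.000258, edgeR). MMP12 of the same cluster had at most 2 reads in any HLE-B3 library. The 50 tested genes nearest to MMP13 had a median log2 fold change of 0.31, and those nearest to MMP2 had −0.13.

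**Figure D4:**
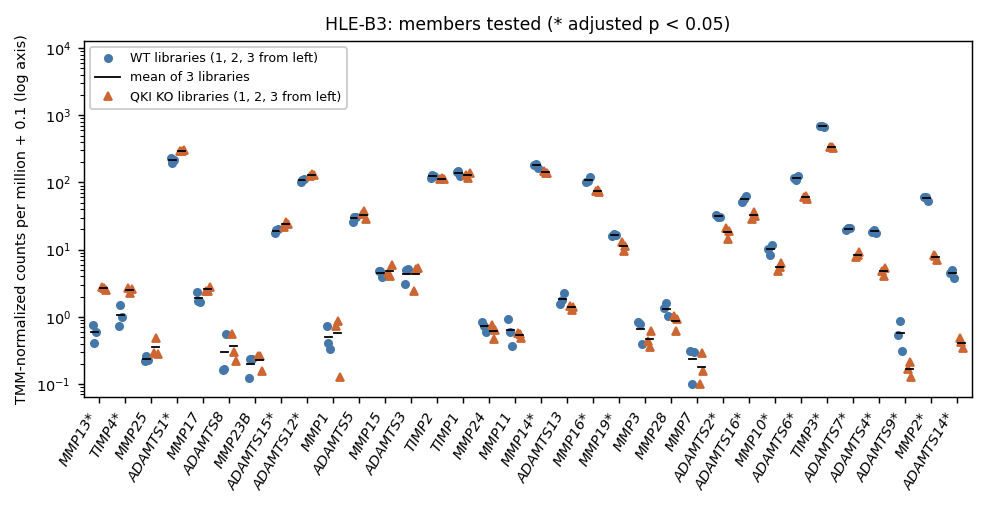
HLE-B3 libraries, TMM-normalized CPM plus 0.1 (log axis), for the 34 members tested, ordered by log2 fold change from left to right. Blue circles are the 3 WT libraries, orange triangles the 3 QKI KO libraries and bars the group means, with an asterisk for an adjusted p under 0.05. MMP13 rises from a mean of 0.493 to 2.56, and MMP2 and ADAMTS14 at the right end fall from 58.5 to 7.72 and from 4.32 to 0.315.

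Of the ADAMTS genes, ADAMTS14 fell most, from 328.3, 355.5 and 272.0 to 28.1, 23.5 and 18.1 normalized counts (−3.77, SE 0.27, adjusted p = 2.05e-08, edgeR). It is a procollagen N-propeptidase, and so is ADAMTS2, which fell from 2398, 2267 and 2240 to 1563, 1056 and 1409 (−0.78, SE 0.11, adjusted p = 4.57e-05, edgeR). Of the proteoglycan-cleaving enzymes, 2 rose and 2 fell. ADAMTS4 fell from 1353, 1451 and 1310 to 350.8, 293.3 and 383.2 normalized counts (−2.0, SE 0.12, adjusted p = 2.68e-09, edgeR), against a median of 0.38 over its 50 nearest tested genes. ADAMTS9 fell from 36, 56 and 15 to 5, 8 and 2 reads (−2.72, adjusted p = 0.0142, edgeR), and this call was lost without WT 2 (−2.18, adjusted p = 0.13, edgeR) or without KO 3 (−2.33, adjusted p = 0.0654, edgeR). ADAMTS1 rose from 17171, 14255 and 15799 to 21822, 21875 and 22177 (0.48, SE 0.06, adjusted p = 1.76e-05, edgeR). ADAMTS5 had 1927, 2213 and 2279.8 against 2481, 2763 and 2083, which overlapped (0.19, adjusted p = 0.159, edgeR, and 0.31, adjusted p = 0.0287, without KO 3). ADAMTS7, the COMP-cleaving enzyme, fell from 1421, 1555 and 1517 to 565.9, 597.3 and 670.8 (−1.29, SE 0.10, adjusted p = 7.38e-08, edgeR). ADAMTS6, related to ADAMTS10 and linked to fibrillin microfibrils, fell from 8544, 8106 and 9311 to 4466, 4680.3 and 4168 (−0.96, SE 0.07), and ADAMTS16 fell by 0.80 (SE 0.09). The other 4 members that passed were MMP19 (−0.56), MMP16 (−0.55), ADAMTS15 (0.33) and ADAMTS12 (0.28), each without overlap between the groups.

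Of the 22 activation and inhibition genes, 19 were tested in HLE-B3 cells, with 4 higher and 6 lower. Over all genes tested in these cells, 17.0% were higher and 16.3% lower (adjusted p under 0.05, edgeR). SERPINB2, an inhibitor of urokinase, fell by 3.22 on the log2 scale (adjusted p = 0.000187, edgeR), and PLAT by 1.33 (adjusted p = 5.54e-11, edgeR). The retinoid-responsive gene RARRES1 was lower at −1.14 (adjusted p = 0.00951, edgeR), SPOCK1 at −1.08 (adjusted p = 2.03e-09, edgeR) and papilin, PAPLN, at −1.0 (adjusted p = 0.000123, edgeR). LRP1, the receptor that clears MMPs and TIMPs from the cell surface, gave −0.55 (adjusted p = 7.85e-05, edgeR), where in the lens it gave 0.92 (adjusted p = 0.023, edgeR). Of 8 substrates tested, 6 were lower and none was higher (edgeR, 0 higher at an unadjusted p under 0.05), led by NID2 (−2.80, adjusted p = 2e-09, edgeR), VWF (−1.16, adjusted p = 0.0428, edgeR), COMP (−1.01, adjusted p = 0.0322, edgeR) and NID1 (−0.53, adjusted p = 7.1e-06, edgeR). The fibroblast and stroma markers, which a lens epithelial line in culture can also carry, summed to 3889 to 3970 CPM in WT and 1936 to 2250.0 in KO cells. Of the 5 tested, 2 were lower and 1 was higher (adjusted p under 0.05, edgeR). The part of these markers in the HLE-B3 member differences was not tested.

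Between the 2 mouse systems the deletion effect itself was compared, as an interaction of system and deletion in a joint fit. It could be tested for 31 members, and 7 passed, against 8.53% of all 16675 genes in that fit (adjusted p under 0.05, edgeR). All 7 differences in edgeR were negative, meaning that the log2 fold change was lower in the NLPCs than in the lens. Over all genes in that fit, 888 passed with a negative and 535 with a positive difference. Adamts4 had 1.49 in the lens and −0.36 in the NLPCs, a difference of −1.75 (SE 0.23, adjusted p = 0.000828, edgeR). Timp1 had 2.59 and −0.39, a difference of −2.89 (SE 0.44, adjusted p = 0.00201, edgeR). Mmp19 had 2.85 and 0.12 (difference −2.70, SE 0.40, adjusted p = 0.00181, edgeR), Adamts1 had 3.07 and 0.19 (difference −2.78, SE 0.64, adjusted p = 0.0192, edgeR), and Adamts10 had 0.99 and 0.021 (difference −0.88, SE 0.24, adjusted p = 0.039, edgeR). These 5 also passed in the fit blocked on replicate number, and the other two, Adamts7 and Adamts8, did not (adjusted p = 0.0547 and 0.0795, edgeR). Adamts7 and Adamts8 had at most 3 and 5 reads in any lens library, could not be tested in the lens alone, and entered the joint fit through their NLPC reads, so the size of their differences is not an estimate of the effect. Adamts7 missed the threshold in DESeq2 too (adjusted p = 0.0724). In DESeq2 Mmp12 (adjusted p = 7.43e-05), listed at 0 in the Ctrl lenses, passed as well, and so did Mmp24 in the other direction (2.98, adjusted p = 0.049), which missed it in edgeR (2.92, adjusted p = 0.123). For Adamts18, lower in the lens and barely read in the NLPCs (1, 27 and 16 against 15, 42 and 7 reads), the difference was 2.26 (adjusted p = 0.217, edgeR, and 0.0374 with the block), and Adamts9 too passed with the block (−2.63, adjusted p = 0.00351, edgeR). The call for Adamts1 was lost without lens Ctrl 1 or Ctrl 3, and that of Adamts10 without any single library other than lens Ctrl 2 or Qk-iCKO 3. Adamts7 kept its call only without lens Qk-iCKO 3, NLPC WT 1 or the libraries labelled Qk-/- 2 and 3, and Adamts8 only without lens Qk-iCKO 2 or 3 or the library labelled Qk-/- 2.

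No member passed in all 3 systems in edgeR, out of 13 tested in all of them, while 2 (Adamts4 and Adamts9) had an unadjusted p under 0.05 in all. The matching share over all genes was not counted, so this absence is not a result about the family. In DESeq2, Adamts9 passed in all 3 systems, as did Adamts2, which edgeR's filter left out of the lens test. Adamts4, Adamts9 and Adamts2 did not go the same way in all 3. In lens, NLPCs and HLE-B3 cells, edgeR gave 1.49, −0.36 and −2.0 for Adamts4 and 3.07, 0.35 and −2.72 for Adamts9. For Adamts2 it gave 2.83 in the lens with every gene of at least 1 count kept, and 1.41 and −0.78 in the other systems. None of the 16 tested in both lens and NLPCs passed in both in edgeR, while 3 (Adamts4, Adamts9 and Timp2) had an unadjusted p under 0.05 in both and Adamts9 and Timp2 passed in both in DESeq2, again with Adamts2 beside them. These 16 held 7 lens calls and 1 NLPC call, so at most 1 call could have been shared. Over all 11230 genes tested in both, matched by symbol, 21.2% of the lens calls and 16.4% of the NLPC calls were shared. In lens and HLE-B3 cells 4 members passed in both systems in edgeR, of 15 tested in both. These are 80% of the 5 lens calls and 44.4% of the 9 HLE-B3 calls among the 15. Over all 9647 genes tested in both, matched by symbol, the shares were 49.7 and 12.6%. Of the 4, ADAMTS1 was higher in both, while ADAMTS4, MMP2 and MMP19 were higher in the lens and lower in HLE-B3 cells, MMP2 at 3.20 and −2.92. In NLPCs and HLE-B3 cells 5 passed in both, of 25 tested, which are 83.3% of the 6 NLPC calls and 33.3% of the 15 HLE-B3 calls among them, against 52.1 and 17.2% over all 11232 genes tested in both. ADAMTS7 (−1.18 and −1.29), MMP16 (−0.54 and −0.55) and ADAMTS15 (0.97 and 0.33) went the same way, and ADAMTS2 (1.41 and −0.78) and ADAMTS14 (1.19 and −3.77) went opposite ways. These overlaps are counts, and the difference between mouse and human systems was not tested.

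**Figure D5:**
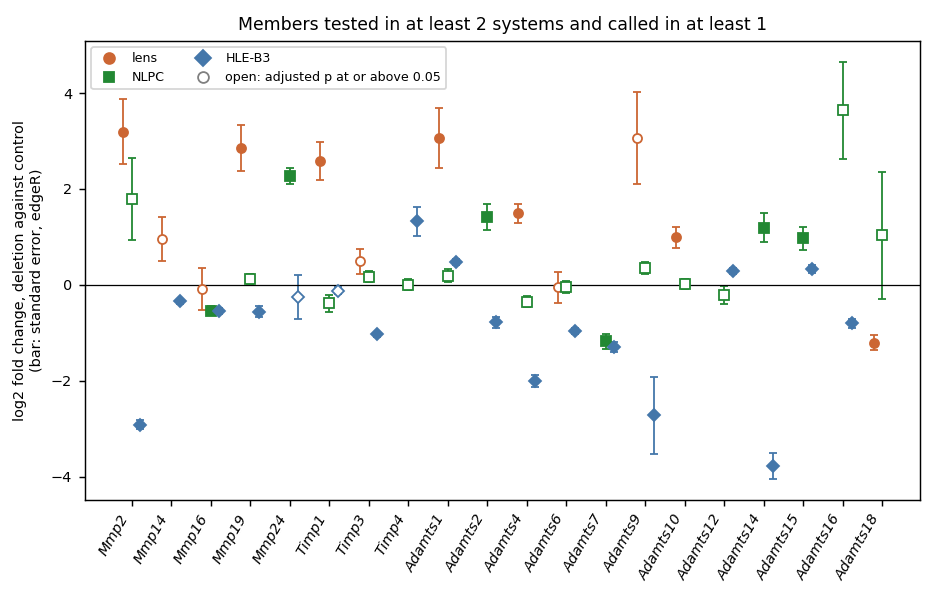
Log2 fold change of deletion against control (vertical axis, with bars of 1 standard error derived from edgeR's F statistic) for the 20 members tested in at least 2 systems and called in at least 1, in the lens (orange circles), NLPCs (green squares) and HLE-B3 cells (blue diamonds). Filled symbols have an adjusted p under 0.05. Mmp2 lies at 3.20 in the lens and −2.92 in HLE-B3 cells, and Adamts7 at −1.18 in NLPCs and −1.29 in HLE-B3 cells.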

How the data were processed

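RNA-seq of lens, NLPCs and HLE-B3 cells was analysed. Each system had 1 deposited table of whole-number read counts, not normalized. The authors made stranded libraries, aligned paired reads to mm10 or hg19 and counted them per gene. The submitters' processing notes name STAR 2.6.1b, HISAT2 2.0.4, HTSeq 0.11.0 and featureCounts, and the strand setting of the counting is not given in the sources used here.

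Each system was fitted on its own in edgeR 4.0.16 (R 4.3.3) by its quasi-likelihood test, after filterByExpr (minimum count 10, total 15) and TMM scaling, on all genes, with Benjamini-Hochberg adjustment of p-values across every tested gene and a threshold of 0.05. Normalized counts are reads scaled to the mean effective library size. The quasi-likelihood test returns no standard error. Each SE given is the absolute log2 fold change divided by the square root of the test's F statistic. Levels per length use merged exons of GENCODE gene models of GRCm38 and GRCh37. The 3 libraries against 3 limit the precision. The members and all lists were chosen with earlier results of these data known. The members named are every TIMP, every member past the threshold (the 12 largest changes where more passed), the 5 with the highest level per length in each control group, and Mmp2, Mmp9, Mmp14, Adamts1, Adamts4 and Adamts5. Of the other lists, at most 6 genes past the threshold were named per system. Lens Adamts2, Adamts9, Mmp12, Mmp13 and Mmp15, NLPC Adamts3, Adamts9 and Adamts16, Adamts7, Adamts8 and Adamts18 in the joint fit, and HLE-B3 MMP12, MMP16, MMP19, ADAMTS12 and ADAMTS15 were named after their values were seen. HLE-B3 MMP1, MMP3 and MMP7 were named for their promoter motif. Genes with near copies, such as Mmp1a and Mmp1b or MMP23A and MMP23B, have uncertain counts.

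The replicate numbers come from the labels. After group means were subtracted, libraries with the same number correlated at 0.233, 0.133 and 0.523 in the lens and at 0.123, 0.32 and 0.145 in the NLPCs (across genes, which are not replicates). Pairs with different numbers reached 0.279 in the lens and 0.232 in the NLPCs. Every same-numbered pair was over 0.1, yet some pairs with different numbers correlated more highly than some of these. The correlations therefore do not settle whether the numbers pair the libraries. The main fits used no block, and the fit with the replicate number as a block is given where it changes a call. The alternatives were RLE factors, total counts alone, TMM without crystallins (lens), other count filters, DESeq2 1.42.0, the replicate block and each library left out. The steps were tested on simulated data. Some withheld items are not reported here.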

Additional observations from a re-analysis of the deposited data

Results flagged for a closer look

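The deletion effect of 7 members differed between the NLPCs and the lens in the joint edgeR fit, by a test of the difference itself. The differences, NLPC minus lens on the log2 scale, were −1.75 for Adamts4, −2.70 for Mmp19, −2.89 for Timp1, −2.78 for Adamts1 and −0.88 for Adamts10. For Adamts7 the difference was −3.03 (adjusted p = 0.0422, edgeR) and for Adamts8 −7.50 (adjusted p = 0.0335, edgeR). Neither gene had enough reads to be tested in the lens alone, so these sizes are no estimates of the effect. Adamts8 had 0 reads in the Ctrl lenses and 8 over the Qk-iCKO lenses, its value depends on the prior count of the fit, and it was −3.95 in DESeq2. Adamts7 missed the threshold in DESeq2 (adjusted p = 0.0724) and both missed it with the replicate number as a block. No group had the 4 libraries needed to look for a single library far from the others.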

How the results depend on the processing

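With the lens alternatives, 10 members were higher when every gene with at least 1 count was kept and 10 in DESeq2, against 6, and 2 were lower with the replicate block, against 1. Scaling to total counts alone moved the median of all genes to 0.29 and turned Adamts6 to 0.13. It left 3 higher and 0 lower activation and inhibition genes, as did requiring at least 10 counts in every library. With 1 library left out, 2 to 9 members were higher in the lens, 1 to 7 activation and inhibition genes were higher and 0 to 1 lower, and Adamts6 ranged from −0.25 to 0.27. In the NLPCs 7 members were higher in DESeq2, against 4, and 1 activation and inhibition gene was higher in DESeq2, with at least 10 counts in every library and with the replicate block, against 0. Timp4 was −0.017 with every gene of at least 1 count kept. With 1 library left out, 1 to 6 members were higher and 1 to 2 lower, 0 to 2 activation and inhibition genes were higher, and Timp4 ranged from −0.12 to 0.10. The joint fit called 3 to 9 members with 1 library left out. The cause was not tested. In HLE-B3 cells, where same-numbered libraries correlated at 0.0613, 0.0566 and −0.0495 and so share only a number, every alternative called 17 to 19 members, the replicate block 18. Named above or in the report are all calls that the replicate block changed. Fits with 1 library left out leave 2 against 3, and their spread is pooled over genes. Members that could not be tested numbered 28 (lens), 14 (NLPC) and 13 (HLE-B3).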
